A study of Sus scrofa with 12 samples.

Results

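Spheroids formed in incubation medium were compared, across all genes, with epithelial cells freshly scraped from the pig oviduct. The comparison took in 8 of the 12 libraries of the series and all 30461 gene rows of the expression table, after 92 rows with the biotype transgene had been dropped. Of these gene rows 14070 held enough counts to be tested. The fresh cells (Cell 1 to 4) were porcine epithelial cells scraped from the oviduct as single cells, and the spheroids (SpheroidsDiff_1 to 4) were clusters of such cells formed in a medium whose composition the labels do not give. Both groups carry the same tissue and cell type labels, and no genotype, transgene or drug is named for either. The labels do not give the age, breed or cycle stage of the animals, the number of animals, whether cells were pooled, or the time in culture. A further group of 4 libraries, spheroids formed in DMEM/F12 and titled SpheroidsFBS_1 to 4, is described only in a direct comparison of the media. These libraries also entered the joint fit, and so shared in the choice of tested genes, the scaling and the estimate of the spread. Each ± is the SD over the 4 libraries of a group, and because the labels do not say whether replicates came from separate animals or cultures, p-values measure only the spread between these libraries.

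The epithelium of the oviduct is built from secretory cells, which release glycoproteins such as OVGP1 into the lumen, and multiciliated cells, whose beating cilia move the egg and the embryo. Its cells carry receptors for estrogen and progesterone, and the balance between secretory and ciliated cells shifts with the reproductive cycle. When epithelial cells are taken from the tissue and cultured in clusters, they lose contact with its stroma and basement membrane. The labels do not say whether the media here held hormones.

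RNA was measured by 3′ mRNA sequencing and is given as CPM, counts per 1000000 counts of a library after TMM scaling, which corrects for differences in RNA composition. Total counts ran from 5045187 to 6026881 in the fresh cell libraries and from 7585780 to 8603774 in the spheroid libraries. A gene counts as called where its adjusted p (edgeR quasi-likelihood test, Benjamini-Hochberg over all genes tested) was under 0.05. By this rule 71.7% of the tested genes were called: 5043 were higher in spheroids (35.8%) and 5042 lower (35.8%). The counts of each gene group below are set against these shares and cover only its tested members, 1171 of 1871 listed entries in all. In 15 of the 58 lists 1 or 2 called members held 3 counts or fewer in every library of a group. These could be called in only 1 direction. Further called members held slightly more than this but passed the filter only through spheroids, such as CDKN2B, TTK, CENPA and TYMS. They were not counted, and they too could only be called higher. A called change of at least 2-fold was found upward for 15.3% and downward for 21.5% of the genes, and the libraries of the groups did not overlap for 64.9%. Downward changes reached further: 648 genes fell at least 8-fold and 315 rose that much, and 117 fell and 61 rose at least 32-fold. Over all tested genes the median log2 fold change was -0.00708, and it was -0.107 when libraries were scaled by their upper quartiles. In a bulk sample, fewer cells of a type and less RNA per cell cannot be told apart.

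Fresh cells and spheroids differed in the genes that held the most counts. OVGP1 (ENSSSCG00025053839), the oviductal glycoprotein, was the named gene with the most counts in fresh cells, at 25009, 15908, 21874 and 26172 CPM in replicates 1 to 4, and stood at 734, 191, 196 and 762 CPM in the spheroids (log2 fold change -5.56, SE 0.59, adjusted p = 1.07e-06). Spheroid replicates 2 and 3 held the least OVGP1, and even the highest spheroid library lay far below the lowest fresh one. SPP1 (ENSSSCG00025039675), the secreted phosphoprotein osteopontin, took the first place in spheroids: it was at 3541, 2828, 2341 and 3254 CPM in fresh cells and at 22196, 21728, 21594 and 25047 CPM in spheroids (log2 fold change 2.92, SE 0.18, adjusted p = 5.70e-09). S100A2 (ENSSSCG00025019554), a calcium-binding protein of basal and stratified epithelia, went from 135, 186, 131 and 145 to 11234, 11334, 13999 and 14764 CPM (log2 fold change 6.43, SE 0.20, adjusted p = 9.34e-12). Its relative S100A6 (ENSSSCG00025019381) went from 316, 279, 179.5 and 251 to 8417, 7792, 9372 and 8672 CPM (log2 fold change 5.06). No library of one group came near the other group for either S100 gene. FTL, the light chain of the iron store ferritin, rose from 1720.1 ± 342 to 6496 ± 336 CPM (log2 fold change 1.92). ACTG1, cytoplasmic actin, rose from 3693 ± 485 to 7943 ± 820 CPM (log2 fold change 1.10). The transcription factor gene FOS fell from 12074 ± 2326 to 161 ± 9.16 CPM (log2 fold change -6.23). EGR1, another early transcription factor, fell from 6453 ± 847 to 47.3 ± 6.37 CPM (log2 fold change -7.09). The small GTPase gene RHOB fell from 7569.9 ± 1406 to 146 ± 9.06 CPM (log2 fold change -5.69), so that 3 of the 10 named genes with the most counts in fresh cells dropped by a factor of 51.7 or more. UBB, a ubiquitin gene, fell from 10407 ± 1692 to 2730.3 ± 156 CPM (log2 fold change -1.93). TPT1, a growth-related translation-associated protein, fell from 13837 ± 1323 to 6569 ± 447 CPM (log2 fold change -1.07). The 10 rows with the most counts held between 9.52 and 10.4% of the counts of a fresh library and between 8.42 and 9.59% of a spheroid library. The counts of OVGP1, ACTG1, FTL, UBB and TPT1 were not whole numbers in at least 6 of the 8 libraries, as where a read is shared between genes, and their levels are uncertain to that extent.

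Among genes with at least 20 CPM on average and no overlap between the groups, 14 of the 20 with the largest rises had a mean under 5 CPM in fresh cells. RCAN2 (ENSSSCG00025025147), a regulator of calcineurin, was at 0.522, 1.08, 0.561 and 1.57 CPM in fresh cells and 90.8, 84.4, 86.9 and 76.8 CPM in spheroids (log2 fold change 6.50, SE 0.21, adjusted p = 1.78e-11). ARNTL2, a partner of the clock protein CLOCK, rose from 2.01 ± 1.07 to 119 ± 6.63 CPM (log2 fold change 5.87). MUC20, a membrane mucin, rose from 0.876 ± 0.279 to 48.7 ± 4.99 CPM (log2 fold change 5.77). The spheroid libraries were tight for these 3 genes. GABRP (ENSSSCG00025017293), the pi subunit of the GABA-A receptor, was already present in fresh cells, at 47.3, 25.5, 37.8 and 43.1 CPM, and reached 1607, 1641, 1568 and 1922 CPM (log2 fold change 5.45, SE 0.19, adjusted p = 3.43e-11). MAL, a membrane protein of apical transport, rose from 8.26 ± 2.52 to 879 ± 476 CPM (log2 fold change 6.73). IGSF23, an immunoglobulin superfamily gene, rose from 1.78 ± 0.655 to 195 ± 38.1 CPM (log2 fold change 6.76). S100A4, a calcium-binding protein linked to cell motility, rose from 4.22 ± 1.29 to 283 ± 113 CPM (log2 fold change 6.06). SFN, the epithelial 14-3-3 protein stratifin, rose from 1.17 ± 0.727 to 54.6 ± 20.6 CPM (log2 fold change 5.50). FHL2, a LIM-domain cofactor, rose from 3.51 ± 1.79 to 123 ± 9.82 CPM (log2 fold change 5.13). MYBL2, a transcription factor of dividing cells, rose from 1.74 ± 0.294 to 61.2 ± 21.7 CPM (log2 fold change 5.12). PTGES, which makes prostaglandin E2, rose from 2.86 ± 1.63 to 78.9 ± 28 CPM (log2 fold change 4.80). CXCL8 (ENSSSCG00025017428), a neutrophil chemokine, was at 55.5, 19.7, 6.54 and 14.9 CPM in fresh cells and 694, 904, 740.2 and 500.3 CPM in spheroids (log2 fold change 4.86, SE 0.46, adjusted p = 3.73e-07); fresh replicate 1 was the highest fresh library, and without it the log2 fold change was 5.69. SPINK9, a protease inhibitor, rose from 1.06 ± 1.06 to 58.2 ± 23.2 CPM (log2 fold change 5.71), and its change was also larger without fresh replicate 1, at 6.38.

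The genes with the largest falls by the same rule included many heat shock and immediate early genes, such as EGR1, FOS, RHOB, DNAJB1 and ATF3. The largest fall of all was that of a heat shock gene (log2 fold change -9.54). Others encode secreted proteins, membrane proteins and a cyclin. SCRG1 (ENSSSCG00025010209), a small secreted protein, was at 487, 253, 392 and 390 CPM in fresh cells and 2.62, 3.2, 1.11 and 3.09 CPM in spheroids (log2 fold change -7.25, SE 0.30, adjusted p = 1.76e-10). PTX3, a soluble pattern recognition protein, fell from 54 ± 4.93 to 0.808 ± 0.327 CPM (log2 fold change -6.05). TMEM213, a small membrane protein, fell from 59.4 ± 26.6 to 0.994 ± 0.358 CPM (log2 fold change -5.89). DPEP2, a membrane dipeptidase, fell from 174 ± 20.5 to 3.06 ± 1.25 CPM (log2 fold change -5.81). TMEM212 (ENSSSCG00025069468) was at 274, 226, 257 and 230.1 CPM in fresh cells and 10.7, 7.88, 3.08 and 6.05 CPM in spheroids (log2 fold change -5.15, SE 0.38, adjusted p = 3.26e-08). The cyclin gene CCNA1 fell from 134 ± 34.9 to 3.86 ± 1.11 CPM (log2 fold change -5.10). CCDC78, a protein of the structures that multiply centrioles, fell from 56.1 ± 4.67 to 1.69 ± 0.568 CPM (log2 fold change -5.04). For these 7 genes the highest spheroid library stood at 4.75% or less of the lowest fresh library. Genes at or under 3 counts in every library of a group, the floor used here, are given as bounds. The flavin monooxygenase gene FMO1 was at 28, 57.2, 36.1 and 39.8 CPM in fresh cells and at the floor in spheroids, at least 105-fold lower, and PVALB, a calcium buffer, was at least 124-fold lower. In all, 147 genes called lower were at the floor in all 4 spheroid libraries, and 143 genes called higher were at the floor in all 4 fresh libraries.

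**Figure D1:**
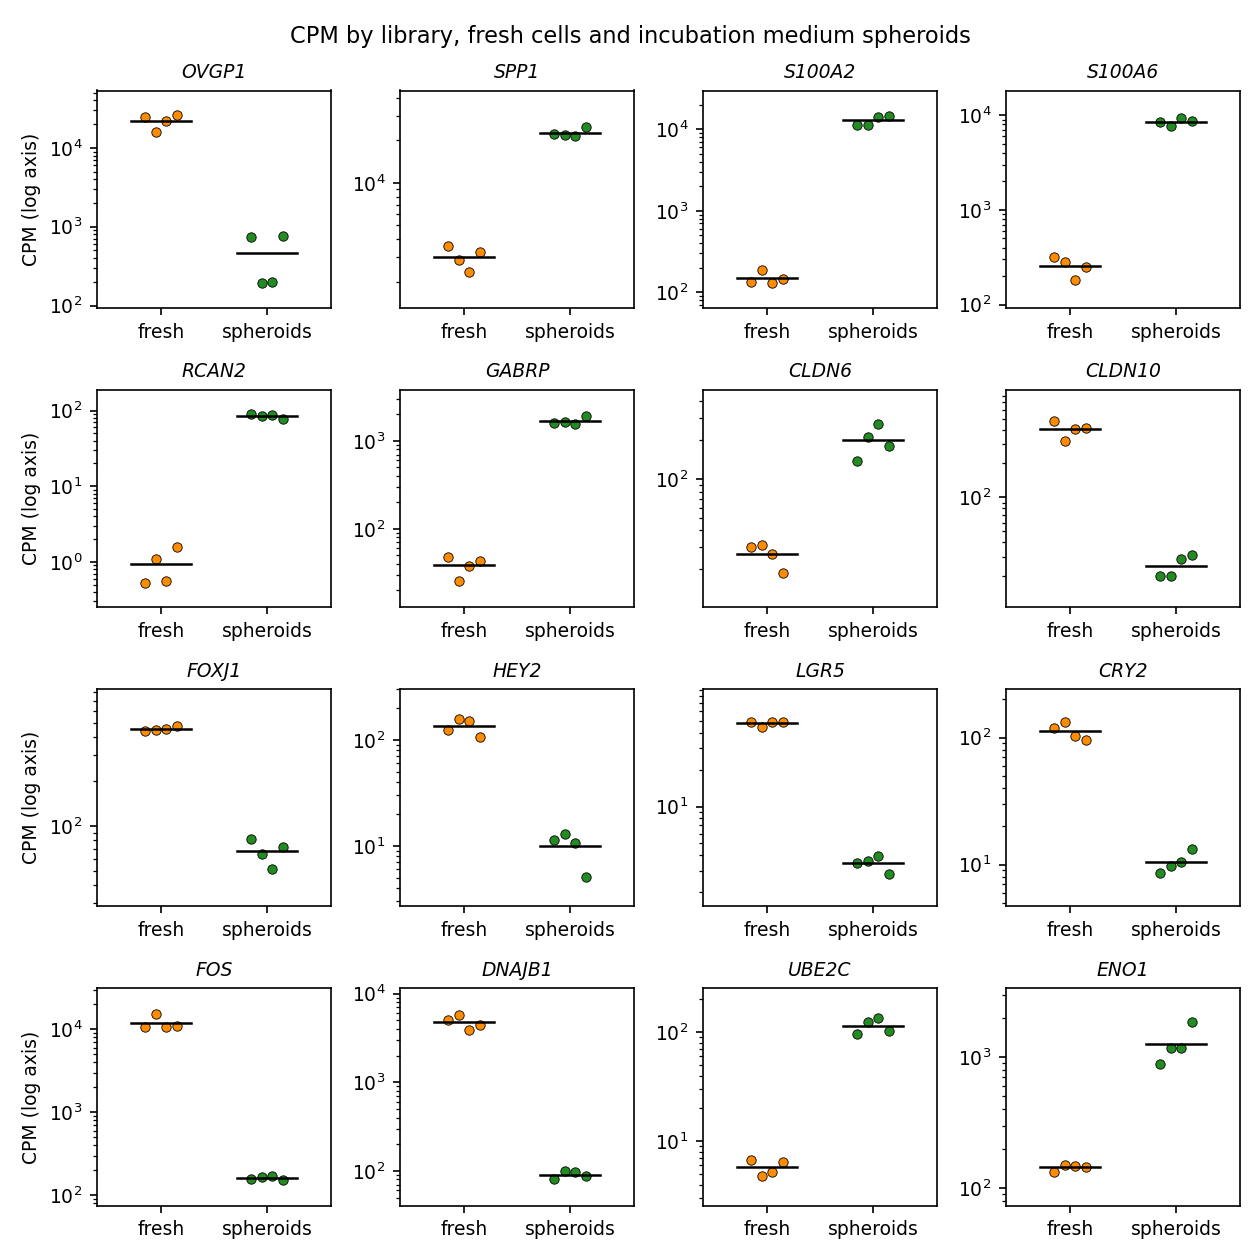
CPM on a log axis of 16 genes in each of the 4 fresh cell libraries and the 4 incubation medium spheroid libraries; each point is 1 library and each bar the mean of a group. Spheroids are high and tight for S100A2, GABRP and RCAN2, and low for OVGP1, FOS, FOXJ1 and HEY2.

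The epithelial label of the cells was checked against markers of epithelium, which were present in both groups. EPCAM, an epithelial adhesion protein, was at 904 ± 112 CPM in fresh cells and 715 ± 148 CPM in spheroids and was not called (adjusted p = 0.0625), whereas it was called lower with the replicate number as a block (adjusted p = 0.00738), with upper quartile scaling (0.015) and with library totals (0.0385). CDH1 (ENSSSCG00025045907), the cadherin of epithelial adherens junctions, was at 382, 383, 434 and 396 CPM in fresh cells and 609, 674, 588 and 552 CPM in spheroids (log2 fold change 0.60, SE 0.09, adjusted p = 1.80e-05). KRT18, a keratin of simple epithelia, rose from 242 ± 22.2 to 719 ± 184 CPM (log2 fold change 1.57). The epithelial transcription factor gene ELF3 rose from 101 ± 7.62 to 590.5 ± 139.7 CPM (log2 fold change 2.55). Of 14 tested genes of epithelial adhesion and simple keratins, 9 were called higher and 1 lower, with a median log2 fold change of 0.56; with the replicate number as a block 9 were higher and 3 lower. The serine protease gene ST14, whose product matriptase acts at epithelial surfaces, rose from 88.8 ± 5.47 to 259 ± 25.7 CPM (log2 fold change 1.55). SPINT2, an inhibitor of such proteases, fell from 1977 ± 94.9 to 1271 ± 198 CPM (log2 fold change -0.64).

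Junction genes did not move as a block. Of 16 tight junction genes 9 were called higher and 5 lower, and the claudins, whose mixture sets the permeability of an epithelium, went both ways. CLDN6 (ENSSSCG00025012661), a claudin of embryonic epithelia, was at 29.9, 30.7, 26.2 and 18.6 CPM in fresh cells and 137, 213, 269 and 181 CPM in spheroids (log2 fold change 2.92, SE 0.21, adjusted p = 2.74e-08). CLDN10 (ENSSSCG00025004404), which forms ion-selective pores, went the other way, from 479.9, 317, 403 and 412 to 20, 20, 28.7 and 31 CPM (log2 fold change -4.01, SE 0.16, adjusted p = 1.37e-10). CLDN8, a claudin of tight epithelia, fell from 69.8 ± 8.48 to 7.81 ± 1.13 CPM (log2 fold change -3.16). CLDN4, the claudin with the highest counts, fell from 1656 ± 297 to 1011 ± 83.9 CPM (log2 fold change -0.71). CLDN7 rose from 357 ± 21.5 to 595 ± 52 CPM (log2 fold change 0.74). Among 6 desmosome genes 4 rose, with PKP3, a plakophilin, going from 15.5 ± 2.82 to 56.4 ± 3.15 CPM (log2 fold change 1.86). The crosslinker PPL rose from 49.2 ± 4.95 to 137 ± 12.2 CPM (log2 fold change 1.48). PERP, a desmosome-associated membrane protein, fell from 1224 ± 101 to 613 ± 27.2 CPM (adjusted p = 1.62e-07). Of 29 listed genes of stratified epithelia and cornification 6 were tested, 2 of them at 3 counts or fewer in every fresh library and tested only through spheroids, so no count of calls is given. S100A14, a calcium-binding protein of the list, rose from 98.4 ± 28.9 to 395 ± 143 CPM (log2 fold change 2.01). KRT15, a basal keratin, rose from 56 ± 10.9 to 97.2 ± 18.3 CPM (log2 fold change 0.79).

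Secretory genes were split. Of 8 tested markers of oviduct secretory cells 3 rose and 5 fell (37.5% and 62.5%, against 35.8% of all genes in each direction). Beside OVGP1, SLPI, a protease inhibitor of mucosal fluids, fell from 4205 ± 1184 to 491 ± 226 CPM (log2 fold change -3.10). TFF3, a trefoil peptide of mucus, fell from 298 ± 112 to 52 ± 11.9 CPM (log2 fold change -2.52). SPP1 and the membrane mucin MUC1 rose, MUC1 from 159 ± 15.1 to 474 ± 23.5 CPM (log2 fold change 1.57). Of 10 mucin and glycosylation genes 5 rose and 4 fell (50% and 40%). Their median log2 fold change of 0.07 turned to -0.0271 with upper quartile scaling. The transferase gene B3GNT3 rose from 0.93 ± 0.314 to 10.1 ± 3.54 CPM (log2 fold change 3.43). CREB3L1, a transcription factor of the secretory pathway, rose from 7.72 ± 1.89 to 63.2 ± 13.4 CPM (log2 fold change 3.04). SPDEF, a transcription factor of mucous cells, fell from 55.8 ± 1.43 to 28.1 ± 4.27 CPM (log2 fold change -0.99). GCNT3, which branches mucin glycans, fell from 40.2 ± 14.3 to 15.7 ± 2.85 CPM (log2 fold change -1.36). Transcription factors of the oviduct and Müllerian duct fell more often than they rose (9 against 3 of 16 tested). KLF4 (ENSSSCG00025005446), a factor of epithelial differentiation that is also an immediate early gene, was at 962, 1872, 1042 and 938 CPM in fresh cells and 111, 132, 92.8 and 93.2 CPM in spheroids (log2 fold change -3.49, SE 0.21, adjusted p = 5.14e-09). KLF5, a factor of proliferating epithelia, fell from 467 ± 82.9 to 199 ± 10.9 CPM (log2 fold change -1.23). WT1, a transcription factor of the reproductive tract, fell from 214 ± 22.4 to 126 ± 11.7 CPM (log2 fold change -0.77). TEAD4, a partner of YAP, rose from 6.8 ± 1.42 to 33.1 ± 4.32 CPM (log2 fold change 2.28). FOXA2, a forkhead factor of glandular epithelia, rose from 24.8 ± 4.05 to 70 ± 7.57 CPM (log2 fold change 1.49). EHF, an ETS factor of epithelia, rose from 58.1 ± 10.2 to 116 ± 15.6 CPM (log2 fold change 1.00).

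Cilium genes were mostly lower in each of 4 lists. Of 11 tested regulators of multiciliated cells 9 were called lower and 2 higher (median log2 fold change -2.59). FOXJ1 (ENSSSCG00025047743), the transcription factor that switches on motile cilium genes, was at 439.7, 447, 455 and 471 CPM in fresh cells and 82.1, 65, 51.2 and 71.6 CPM in spheroids (log2 fold change -2.75, SE 0.22, adjusted p = 6.08e-08). Spheroid replicate 3 had the least FOXJ1, and the 4 fresh libraries differed little. GMNC, which starts centriole multiplication, fell from 34.6 ± 9.23 to 4.07 ± 2.52 CPM (log2 fold change -3.08). TP73, a p53 relative needed for multiciliated cells, fell from 74.2 ± 8.13 to 12.4 ± 1.97 CPM (log2 fold change -2.59). RFX2, a partner of FOXJ1 at cilium genes, fell from 63.7 ± 9.95 to 9.17 ± 2.54 CPM (log2 fold change -2.79). E2F5, an E2F factor that works with the centriole regulators, rose from 21.1 ± 3.12 to 37.9 ± 2.16 CPM (log2 fold change 0.85). Among 10 genes of axonemal dyneins, the motors of the beating cilium, and of their assembly 9 fell and the other was not called (median -2.62). DNAI2 (ENSSSCG00025067394), a dynein intermediate chain, was at 72.4, 62.2, 69.6 and 65.3 CPM in fresh cells and 3.58, 3.07, 2.09 and 3.36 CPM in spheroids (log2 fold change -4.47, SE 0.28, adjusted p = 6.56e-09). DNAAF1, needed to assemble the dyneins, fell from 21.7 ± 2.81 to 1.28 ± 0.625 CPM (log2 fold change -4.04). DNAH1, a dynein heavy chain, fell from 41 ± 6.85 to 2.63 ± 1.15 CPM (log2 fold change -3.94). ZMYND10, another dynein assembly factor, fell from 146 ± 10.1 to 20.7 ± 5.84 CPM (log2 fold change -2.82). All 25 tested genes of radial spokes, the central pair and other axoneme parts were called lower (median -2.84), 24 of them at least 2-fold. TPPP3, a tubulin-binding protein of ciliated cells, fell from 434 ± 61.1 to 73.4 ± 23.8 CPM (log2 fold change -2.56). ROPN1L, of the radial spokes, fell from 344 ± 37 to 48.2 ± 11.2 CPM (log2 fold change -2.83). CAPS, the calcium-binding protein calcyphosine, fell from 112 ± 7.13 to 7.08 ± 2.85 CPM (log2 fold change -3.97). CFAP52, a protein of the ciliary microtubules, fell from 89.1 ± 11.6 to 5.98 ± 0.852 CPM (log2 fold change -3.89). Intraflagellar transport and BBSome genes, which serve both motile and primary cilia, were called lower in 25 of 26, but their median was -1.05 and 14 fell at least 2-fold. IFT140, a retrograde transport subunit, fell from 52 ± 6.56 to 10.3 ± 1.3 CPM (log2 fold change -2.33). DYNC2H1, the motor of return transport, fell from 106 ± 12.9 to 28.2 ± 3.52 CPM (log2 fold change -1.91). IFT20 fell only from 131 ± 8.22 to 88.3 ± 5.02 CPM (log2 fold change -0.57). The summed level of the radial spoke list was 1922 to 2290.3 CPM in fresh libraries and 334 to 501 CPM in spheroid libraries, and that of the transport list 1588 to 1761 and 711 to 847 CPM.

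**Figure D2:**
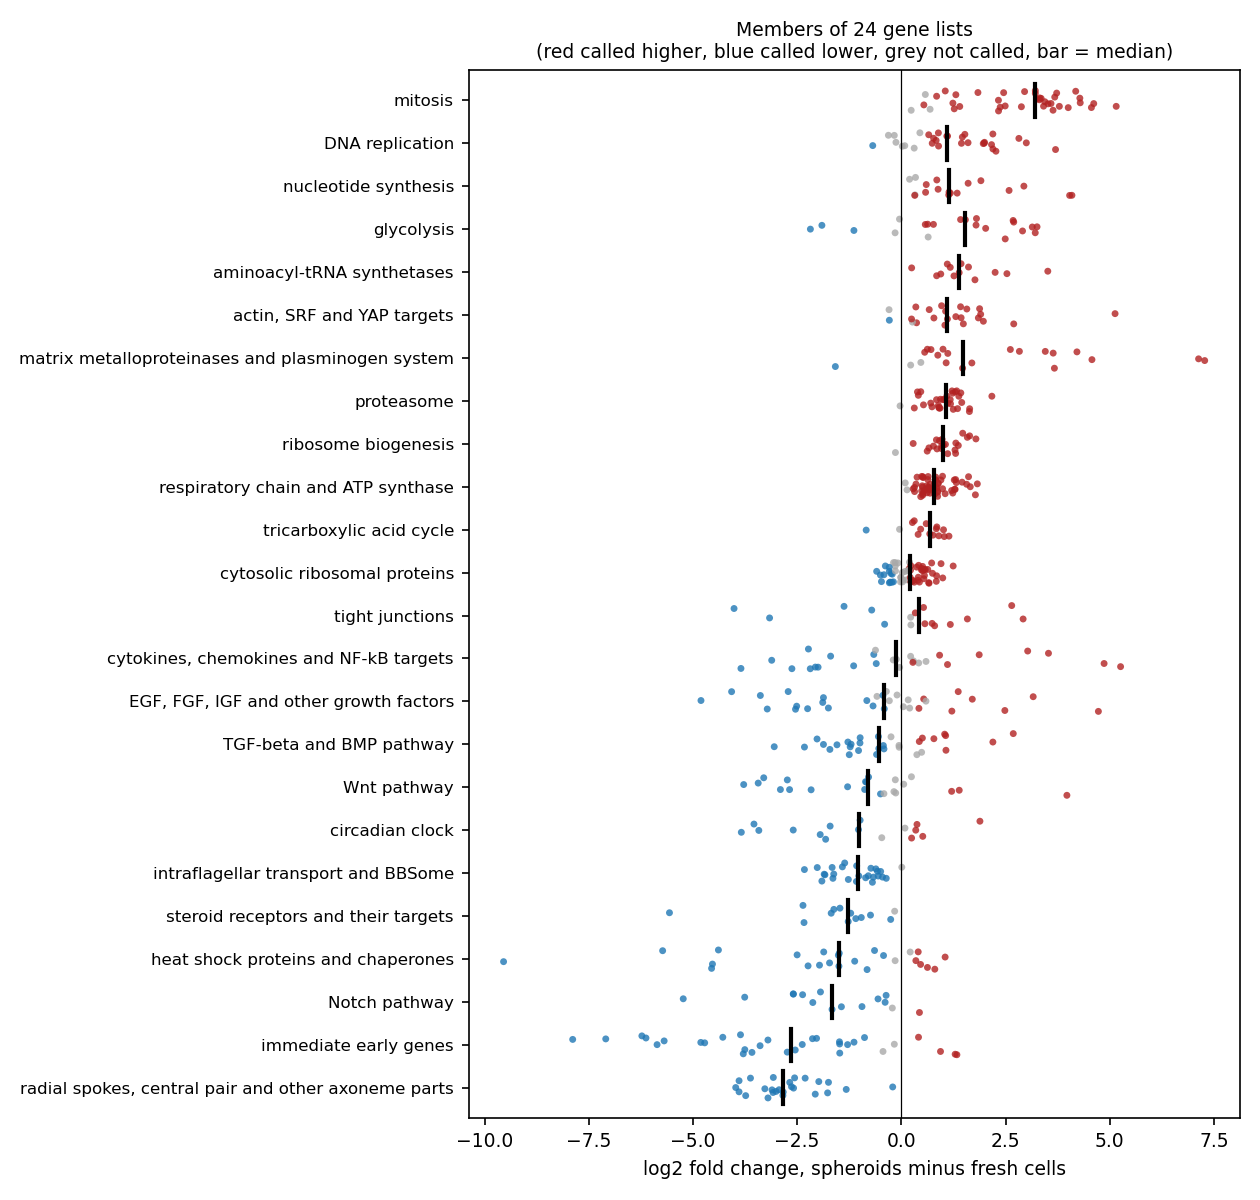
Log2 fold change of incubation medium spheroids against fresh cells for every tested member of 24 gene lists; each point is 1 gene, coloured when called and grey when not, and the black bar is the list's median, drawn from fitted values also where a gene was at the floor. The medians run from -2.84 for the radial spoke and axoneme list to 3.21 for the mitosis list, and all 25 genes of the former lie below 0.

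Notch and Wnt genes, which pattern many epithelia, were mostly lower. Of 15 Notch pathway genes 13 fell and 1 rose, with a median log2 fold change of -1.66; Notch is a receptor system through which neighbouring cells take different fates. The ligand gene JAG1 (ENSSSCG00025069417) was at 189, 208, 265 and 245 CPM in fresh cells and 52, 40.7, 40.4 and 42.3 CPM in spheroids (log2 fold change -2.37, SE 0.12, adjusted p = 8.43e-10). Among the receptors NOTCH3 fell from 55.2 ± 10 to 14.4 ± 2.96 CPM (log2 fold change -1.94). The fall of NOTCH2 was smaller, from 157 ± 16.2 to 122 ± 6.04 CPM (log2 fold change -0.37). The largest falls were those of target genes. HEY2 (ENSSSCG00025065751) was at 123, 159, 152 and 107 CPM in fresh cells and 11.3, 12.8, 10.6 and 5.1 CPM in spheroids (log2 fold change -3.76, SE 0.23, adjusted p = 5.45e-09). HES1, a classic target, fell from 322 ± 60.7 to 53.3 ± 8.56 CPM (log2 fold change -2.59). HEY1, the relative of HEY2, fell from 11.4 ± 4.04 to 0.278 ± 0.204 CPM (log2 fold change -5.23). Its spheroid counts were near the floor, so the size of this fall is uncertain. The one member called higher was HES6, from 18.9 ± 1.29 to 25.6 ± 1.4 CPM (log2 fold change 0.43). In the Wnt pathway 13 of 22 genes fell and 3 rose. Fitted log2 fold changes ran from -3.78 to 3.97, and 1 called member was at the floor in 1 group. LGR5 (ENSSSCG00025048215), a receptor of R-spondins and marker of stem cells in several epithelia, was at 49.3, 44.3, 49.4 and 48.6 CPM in fresh cells and 3.46, 3.6, 3.94 and 2.82 CPM in spheroids (log2 fold change -3.78, SE 0.17, adjusted p = 3.85e-10). Its relative LGR6 fell from 5.65 ± 1.27 to 0.5 ± 0.288 CPM (log2 fold change -3.43). The receptor FZD5 fell from 207 ± 29.4 to 27.6 ± 3.18 CPM (log2 fold change -2.90). The ligand WNT2 fell from 21.1 ± 8.1 to 2.12 ± 1.29 CPM (log2 fold change -3.30). The ligand WNT7A rose from 1.62 ± 0.783 to 4.25 ± 0.454 CPM (log2 fold change 1.39). The nuclear factor TCF7 rose from 16.9 ± 3.78 to 39 ± 9.05 CPM (log2 fold change 1.21). TGF-beta and BMP genes were called lower in 18 and higher in 8 of 31. The receptor TGFBR2 (ENSSSCG00025024102) rose, from 52, 46.3, 45.4 and 35.5 to 202, 210.4, 233 and 177 CPM (log2 fold change 2.20, SE 0.12, adjusted p = 1.36e-09). The ligand TGFB1 rose from 6.76 ± 0.658 to 14.2 ± 4.91 CPM (log2 fold change 1.07). The nuclear inhibitor ID3 rose from 23.9 ± 2.26 to 154 ± 50.6 CPM (log2 fold change 2.68). The ligand TGFB3 fell from 26 ± 5.82 to 3.12 ± 0.736 CPM (log2 fold change -3.05). The receptor BMPR1B fell from 87.7 ± 9.45 to 21.6 ± 2.36 CPM (log2 fold change -2.02). The inhibitory SMAD7 fell from 12.3 ± 2.38 to 2.43 ± 0.516 CPM (log2 fold change -2.33). ID4, a relative of ID3, fell from 382 ± 60.8 to 116 ± 12 CPM (log2 fold change -1.71). Thus members of the ID family, which block differentiation factors, moved in opposite directions.

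Growth factor genes fell in 15 and rose in 8 of 31 tested (48.4% and 25.8%, against 35.8% of all genes in each direction). FGFBP1 (ENSSSCG00025038865), which releases fibroblast growth factors from the matrix, was at 146, 35.2, 64.1 and 90.2 CPM in fresh cells and 2578, 1604, 2478 and 2227 CPM in spheroids (log2 fold change 4.73, SE 0.39, adjusted p = 8.00e-08). EREG, a ligand of the EGF receptor, rose from 6.61 ± 1.54 to 37.2 ± 16.3 CPM (log2 fold change 2.48). MDK, midkine, rose from 485 ± 33.2 to 1123 ± 168 CPM (log2 fold change 1.21). IGFBP6, a binding protein of insulin-like growth factors, rose from 4.26 ± 0.853 to 38 ± 12.1 CPM (log2 fold change 3.16). The receptor EGFR itself fell from 237 ± 41.8 to 148 ± 14.3 CPM (log2 fold change -0.68). HGF, hepatocyte growth factor, fell from 6.7 ± 0.753 to 0.382 ± 0.343 CPM (log2 fold change -4.07), with spheroid counts near the floor. FGF18, a fibroblast growth factor, fell from 10.1 ± 1.45 to 0.956 ± 0.378 CPM (log2 fold change -3.38).

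Hormone receptors and their targets were lower in 12 of 13 tested, and the other was not called. ESR1 (ENSSSCG00025044932), the estrogen receptor, was at 565, 625, 657 and 680.4 CPM in fresh cells and 326, 256, 253 and 253 CPM in spheroids (log2 fold change -1.22, SE 0.12, adjusted p = 3.55e-07). PGR, the progesterone receptor, fell from 68 ± 18.8 to 22.1 ± 5.82 CPM (log2 fold change -1.62). TSC22D3, a glucocorticoid-responsive gene, fell from 183 ± 41.1 to 35.7 ± 10 CPM (log2 fold change -2.36). SGK1, a kinase induced by the same hormones, fell from 148 ± 43 to 29.3 ± 4.63 CPM (log2 fold change -2.34). Of 16 clock genes 9 were called lower and 5 higher. CRY2 (ENSSSCG00025030613), a repressor of the clock, was at 119, 132, 103 and 95.2 CPM in fresh cells and 8.59, 9.74, 10.5 and 13.2 CPM in spheroids (log2 fold change -3.42, SE 0.14, adjusted p = 1.54e-10). TEF, an output factor of the clock, fell from 54.9 ± 15.4 to 3.83 ± 0.257 CPM (log2 fold change -3.84). HLF, another output factor, fell from 8.66 ± 2.07 to 0.726 ± 0.243 CPM (log2 fold change -3.54). NFIL3, which binds the same sites, fell from 157 ± 41.7 to 40.8 ± 3.77 CPM (log2 fold change -1.95). BHLHE40, a repressor of clock targets, rose from 23.5 ± 6.88 to 87.2 ± 17.3 CPM (log2 fold change 1.88). Its relative BHLHE41 fell from 83.5 ± 9.2 to 28.4 ± 7.11 CPM (log2 fold change -1.56).

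Genes of cell division were higher. In the mitosis list 36 of 39 tested genes rose and the others were not called (median log2 fold change 3.21), 34 of them at least 2-fold. UBE2C (ENSSSCG00025064755), a ubiquitin-conjugating enzyme of the anaphase complex, was at 6.79, 4.84, 5.24 and 6.47 CPM in fresh cells and 96.2, 123, 134 and 102 CPM in spheroids (log2 fold change 4.28, SE 0.15, adjusted p = 2.74e-11). The kinase gene TTK rose from 0.408 ± 0.303 to 15.3 ± 1.85 CPM (log2 fold change 5.15). CENPF, of the kinetochore, rose from 2.59 ± 1.03 to 63.5 ± 4.69 CPM (log2 fold change 4.62). The centromeric histone CENPA rose from 0.841 ± 0.49 to 19.9 ± 4.7 CPM (log2 fold change 4.56). TTK and CENPA held too few counts in fresh cells to pass the filter there, so they could only be called higher. CDC20, an activator of the anaphase complex, rose from 17.8 ± 6.21 to 101 ± 8.27 CPM (log2 fold change 2.49). Summed over the list, the level was 318 to 371 CPM in fresh libraries and 1196 to 1572 CPM in spheroid libraries. DNA replication genes rose in 22 of 30 with a smaller median of 1.10. The replicative helicase subunit MCM5 rose from 5.34 ± 1.48 to 37.5 ± 11.6 CPM (log2 fold change 2.82). GINS1, of a complex that works with this helicase, rose from 2.24 ± 0.984 to 29.4 ± 6.24 CPM (log2 fold change 3.70). MCM7, another subunit of the same helicase, rose from 41.9 ± 4.69 to 116 ± 16.7 CPM (log2 fold change 1.46). RPA3, a subunit of the single-strand binding protein, was the 1 gene called lower and went from 72 ± 5.15 to 44.7 ± 8.66 CPM (log2 fold change -0.69). Nucleotide synthesis rose in 15 of 18 (median 1.14), with thymidine kinase TK1 going from 1.57 ± 0.263 to 26.9 ± 5.23 CPM (log2 fold change 4.09). Thymidylate synthase TYMS rose from 0.96 ± 0.585 to 16.1 ± 3.25 CPM (log2 fold change 4.04). Inhibitors of the cycle rose and fell. CDKN2B (ENSSSCG00025046171), a TGF-beta-inducible inhibitor of CDK4 and CDK6, went from 0.522, 0.717, 0.187 and 0.392 to 18.7, 17.2, 16.9 and 19.9 CPM (log2 fold change 5.25, SE 0.26, adjusted p = 7.45e-10). CDKN2A, an inhibitor gene of the same family, rose from 0.406 ± 0.209 to 1.21 ± 0.296 CPM (log2 fold change 1.51). CDKN1B, the CDK inhibitor p27, fell from 79.5 ± 1.4 to 26.5 ± 4.7 CPM (log2 fold change -1.58). Cyclin D1, CCND1, rose from 52.6 ± 16.2 to 136 ± 39.6 CPM (log2 fold change 1.37).

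Genes of the machinery that makes and removes proteins were mostly higher. Ribosome biogenesis genes rose in 21 of 22 (median log2 fold change 0.99) and the other was not called. FBL (ENSSSCG00025039647), the methyltransferase of ribosomal RNA, was at 124, 118, 137 and 99.4 CPM in fresh cells and 278, 379.6, 365 and 304 CPM in spheroids (log2 fold change 1.47, SE 0.13, adjusted p = 1.48e-07). NPM1, the nucleolar protein nucleophosmin, rose from 709 ± 42.1 to 1282 ± 45.4 CPM (log2 fold change 0.86). Proteasome genes rose in 31 of 32 (median 1.06), with PSMB3, a subunit of the catalytic ring, going from 45.7 ± 3.77 to 206 ± 26.8 CPM (log2 fold change 2.17). PSMD14, of the lid, rose from 31.6 ± 5.17 to 98.1 ± 18.7 CPM (log2 fold change 1.63). All 13 tested aminoacyl-tRNA synthetases, which load amino acids onto tRNA, were called higher (median 1.39), led by GARS1, the synthetase of glycine, from 28.8 ± 5.5 to 329 ± 31 CPM (log2 fold change 3.51). YARS1, the synthetase of tyrosine, rose from 7.1 ± 2.2 to 41.4 ± 8.98 CPM (log2 fold change 2.53). Cytosolic ribosomal proteins split: 31 of 60 rose, 13 fell and 16 were not called, with a median of 0.20. With upper quartile scaling the numbers were 24 and 18. RPSA (ENSSSCG00025041954), of the small subunit and also a laminin receptor, was at 1996, 1908, 1927 and 1845 CPM in fresh cells and 4957, 4068, 4041 and 5104 CPM in spheroids (log2 fold change 1.24, SE 0.09, adjusted p = 2.34e-08). RPL34 (ENSSSCG00025038271) went the other way, from 3411, 3251, 3282 and 3219 to 2199, 2266, 2077 and 2188 CPM (log2 fold change -0.59, SE 0.08, adjusted p = 7.66e-06), so that subunits of the same particle differed in direction. RPL8, of the large subunit, rose from 1327 ± 138 to 2639.6 ± 65.5 CPM (log2 fold change 0.99). RPL6, also of the large subunit, fell from 2569.6 ± 85.3 to 1814 ± 65.9 CPM (log2 fold change -0.50).

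Genes of glycolysis and of respiration were both mostly higher. Respiratory chain and ATP synthase genes rose in 57 of 59 (median log2 fold change 0.79), and 14 rose at least 2-fold. COX5A (ENSSSCG00025063354), of cytochrome oxidase, was at 125, 116, 123 and 97.8 CPM in fresh cells and 392, 416, 455 and 373 CPM in spheroids (log2 fold change 1.82, SE 0.11, adjusted p = 3.09e-09). CYC1, cytochrome c1, rose from 86.8 ± 9.28 to 297 ± 26.5 CPM (log2 fold change 1.78). In the tricarboxylic acid cycle 13 of 15 genes rose, among them IDH2, from 124 ± 24.5 to 273 ± 28.1 CPM (log2 fold change 1.14). OGDH was the 1 gene to fall, from 207 ± 29.3 to 115 ± 13.3 CPM (log2 fold change -0.84). Glycolysis genes rose in 15 and fell in 3 of 21 (median 1.54), and isoenzymes of the same step parted. ENO1 (ENSSSCG00025073716), the widespread enolase, was at 133, 150.5, 146 and 146 CPM in fresh cells and 879, 1174, 1183 and 1843 CPM in spheroids (log2 fold change 3.14, SE 0.18, adjusted p = 3.64e-09). ENO2, the neuronal enolase, fell from 66.5 ± 9.92 to 14.7 ± 9.91 CPM (log2 fold change -2.18) in the same libraries. The aldolase gene ALDOC fell from 82.8 ± 16.8 to 37.7 ± 12.1 CPM (log2 fold change -1.14). LDHA (ENSSSCG00025058148), which turns pyruvate into lactate, went from 54.7, 47.5, 62.8 and 49.6 to 238, 524, 457 and 831 CPM (log2 fold change 3.25, SE 0.30, adjusted p = 2.68e-07); spheroid replicate 1 was the lowest and replicate 4 the highest of the spheroid libraries. GAPDH, glyceraldehyde phosphate dehydrogenase, rose from 485 ± 7.94 to 3636 ± 1484 CPM (log2 fold change 2.91). PKM, pyruvate kinase, rose from 205 ± 18.2 to 1329 ± 362 CPM (log2 fold change 2.70). Hexokinase HK2 rose from 4.08 ± 1.92 to 38.4 ± 22.8 CPM (log2 fold change 3.21). Hypoxia response genes rose in 11 and fell in 1 of 19. AK4, a mitochondrial adenylate kinase, rose from 4.3 ± 1.08 to 49 ± 27.7 CPM (log2 fold change 3.51). CA12, a carbonic anhydrase, rose from 12.5 ± 4.7 to 78.6 ± 16.1 CPM (log2 fold change 2.65). ADM, adrenomedullin, rose from 83.8 ± 38 to 197 ± 89.5 CPM (log2 fold change 1.23). P4HA1, a collagen hydroxylase, fell from 119 ± 9.46 to 63.2 ± 23.9 CPM (log2 fold change -0.92).

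Genes of fatty acid synthesis and of cholesterol rose more often than they fell, and those of fatty acid oxidation went both ways. Fatty acid synthesis genes rose in 11 and fell in 2 of 14. FASN, the synthase, rose from 55.7 ± 11.5 to 109 ± 18.6 CPM (log2 fold change 0.97). ACSL4, which activates polyunsaturated fatty acids, rose from 52.3 ± 2.95 to 153 ± 15.7 CPM (log2 fold change 1.55). DGAT1, the last step to triglyceride, rose from 3.57 ± 1.1 to 16.2 ± 3.35 CPM (log2 fold change 2.18). ACACB, a carboxylase that restrains fatty acid oxidation, fell from 5.1 ± 1.44 to 0.992 ± 0.379 CPM (log2 fold change -2.34). Fatty acid oxidation and PPAR target genes rose in 9 and fell in 7 of 22 (40.9% and 31.8%), shares near those of all genes. FABP3 (ENSSSCG00025057693), a fatty acid carrier, was at 5.22, 4.84, 2.99 and 3.53 CPM in fresh cells and 50.2, 61, 72.9 and 54.4 CPM in spheroids (log2 fold change 3.83, SE 0.18, adjusted p = 4.11e-10). FABP5, another fatty acid carrier, rose from 6.85 ± 0.423 to 26 ± 9 CPM (log2 fold change 1.92). ACADL, a dehydrogenase of beta-oxidation, fell from 37 ± 3.9 to 9.48 ± 1.57 CPM (log2 fold change -1.96). HADH, a later dehydrogenase of the same pathway, fell from 316 ± 43.6 to 163 ± 7.81 CPM (log2 fold change -0.95). In the cholesterol list 12 of 25 rose and 2 fell, with DHCR7 going from 11.1 ± 3.15 to 45.5 ± 4.63 CPM (log2 fold change 2.03). IDI1, an isomerase of the isoprenoid steps, rose from 46.6 ± 15 to 135 ± 16.2 CPM (log2 fold change 1.53). The controlling factor SREBF2 rose from 81.9 ± 12.3 to 209 ± 7.21 CPM (log2 fold change 1.35).

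Amino acid and one-carbon genes of the ATF4 response rose in 14 and fell in 4 of 23, and 3 of those that fell encode transcription factors. CBS (ENSSSCG00025065041), the first enzyme of transsulfuration, was at 2.26, 1.97, 0.748 and 2.35 CPM in fresh cells and 32.5, 22.4, 23 and 29.6 CPM in spheroids (log2 fold change 3.86, SE 0.24, adjusted p = 6.54e-09). The glutamine transporter gene SLC1A5 rose from 33.1 ± 3.43 to 287 ± 30.1 CPM (log2 fold change 3.11). The factor ATF5 rose from 5.08 ± 0.794 to 44.4 ± 11.7 CPM (log2 fold change 3.13). NUPR1, a stress-induced nuclear protein, rose from 282 ± 80.2 to 2144 ± 624 CPM (log2 fold change 2.93). ATF3, a stress transcription factor, fell from 3293 ± 740.5 to 69.7 ± 6.92 CPM (log2 fold change -5.56). DDIT3, the factor CHOP, fell from 141 ± 35.6 to 38.8 ± 7.63 CPM (log2 fold change -1.86). CEBPB, a C/EBP factor, fell from 393 ± 77.7 to 158 ± 9.74 CPM (log2 fold change -1.32).

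Immediate early and heat shock genes, which respond within minutes to handling, serum or heat, were mostly lower in spheroids. Immediate early genes fell in 26 and rose in 4 of 32 (median log2 fold change -2.64), and their summed level went from 44628 to 64226 CPM to 5111 to 5533 CPM per library. The AP-1 gene FOSL1 was one of the exceptions and rose from 24.4 ± 15.2 to 62.1 ± 15.6 CPM (log2 fold change 1.33). IER3, an early gene that affects cell survival, rose from 285 ± 117 to 697 ± 39.7 CPM (log2 fold change 1.29). SPRED1, an inhibitor of Ras signalling, rose from 14.9 ± 2.62 to 28.7 ± 4.1 CPM (log2 fold change 0.94). Heat shock proteins and chaperones fell in 17 and rose in 6 of 25. DNAJB1 (ENSSSCG00025041331), a stress-inducible co-chaperone, was at 5056, 5813, 3938 and 4384 CPM in fresh cells and 80.2, 98.6, 96.4 and 87 CPM in spheroids (log2 fold change -5.73, SE 0.15, adjusted p = 2.07e-12). HSP90AA1, a chaperone of signalling proteins, fell from 3074 ± 403 to 788 ± 97.5 CPM (log2 fold change -1.96). HSPA8, a constitutive chaperone, fell from 3196 ± 449 to 968 ± 143 CPM (log2 fold change -1.72). CCT3, of the chaperonin that folds actin and tubulin, rose from 141 ± 22.6 to 293 ± 27.4 CPM (log2 fold change 1.05). CCT5, of the same chaperonin, rose from 192 ± 19.5 to 335 ± 28.1 CPM (log2 fold change 0.80). In the list of endoplasmic reticulum chaperones and other genes of the unfolded protein response 9 fell and 1 rose of 17. HERPUD1, which works in the removal of misfolded proteins, fell from 847 ± 272 to 129.5 ± 10.8 CPM (log2 fold change -2.71). SEC61B, a subunit of the protein translocon, was the gene that rose, from 506 ± 64.8 to 756 ± 40.8 CPM (log2 fold change 0.58).

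Redox genes rose in 20 and fell in 5 of 28. SLC6A6 (ENSSSCG00025075168), the taurine transporter, was at 4.7, 2.51, 5.42 and 2.94 CPM in fresh cells and 111, 82.8, 93.4 and 116 CPM in spheroids (log2 fold change 4.69, SE 0.20, adjusted p = 1.76e-10). Transketolase TKT rose from 69.2 ± 4.4 to 630.1 ± 71.7 CPM (log2 fold change 3.19). Thioredoxin TXN rose from 496 ± 54.4 to 1988 ± 280.2 CPM (log2 fold change 2.00). NQO1, a quinone reductase, rose from 3.74 ± 0.69 to 27.9 ± 3.56 CPM (log2 fold change 2.89). Catalase CAT fell from 83.9 ± 12.9 to 27.8 ± 5.05 CPM (log2 fold change -1.59). PRDX5, a peroxiredoxin, fell from 301 ± 19.1 to 157 ± 17.3 CPM (log2 fold change -0.94). Genes of iron handling moved both ways. TFRC, the transferrin receptor, rose from 14.3 ± 1.53 to 102 ± 35.8 CPM (log2 fold change 2.83). FTH1, the ferritin heavy chain, rose from 2717 ± 470 to 4121 ± 411 CPM (log2 fold change 0.60). SLC40A1, the iron exporter ferroportin, fell from 45 ± 7.32 to 7.15 ± 3.07 CPM (log2 fold change -2.65). MT2A, a zinc-responsive metallothionein, fell from 971 ± 167 to 369.8 ± 149 CPM (log2 fold change -1.39). SLC30A1, a zinc exporter, fell from 37.9 ± 5.71 to 5.29 ± 1.27 CPM (log2 fold change -2.84).

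Immune and inflammatory genes did not share a direction. Of 27 cytokine, chemokine and NF-kB genes 8 rose and 11 fell (29.6% and 40.7%), shares near the 35.8% of all genes in each direction. IL18 (ENSSSCG00025045431), an epithelial cytokine, was at 5.05, 4.3, 4.67 and 4.12 CPM in fresh cells and 46.9, 46.5, 71.9 and 45.3 CPM in spheroids (log2 fold change 3.53, SE 0.24, adjusted p = 1.53e-08). IL6 (ENSSSCG00025055710) went the other way, from 80.6, 51.5, 39.3 and 27.6 to 2.03, 4.67, 4.18 and 2.96 CPM (log2 fold change -3.85, SE 0.36, adjusted p = 2.93e-07). The chemokine CCL5 fell from 11 ± 4.94 to 1.77 ± 0.64 CPM (log2 fold change -2.63). NFKBIA, an inhibitor and target of NF-kB, fell from 540.3 ± 88.9 to 244 ± 68.8 CPM (log2 fold change -1.14). The acute phase gene SAA3 rose from 331 ± 137 to 712 ± 187 CPM (log2 fold change 1.11). Subunits of the immunoproteasome, which shapes peptides for presentation, were higher. PSMB10 rose from 23.6 ± 3.21 to 101 ± 17 CPM (log2 fold change 2.10). PSMB9 rose from 22.1 ± 5.02 to 69.9 ± 22 CPM (log2 fold change 1.66). PSMB8 rose from 17.9 ± 5.16 to 50.1 ± 10.8 CPM (log2 fold change 1.49). SLA-DMA, of the class II pathway, fell from 43 ± 11.3 to 14.3 ± 4.56 CPM (log2 fold change -1.59). SLA-DMB, its partner chain, fell from 13.8 ± 1.88 to 3.87 ± 2 CPM (log2 fold change -1.84). Interferon response genes rose in 11 and fell in 5 of 24. GBP1, an interferon-induced GTPase, rose from 8.95 ± 3.42 to 34.5 ± 6.7 CPM (log2 fold change 1.94). IFI6, the gene of the list with the most counts, fell from 2088 ± 461 to 504 ± 304 CPM (log2 fold change -2.05). Complement and defence genes fell in 11 and rose in 2 of 17. Among regulators that protect cells from complement, CD46 rose from 90.2 ± 7.06 to 193 ± 10.3 CPM (log2 fold change 1.10). CD59, an inhibitor of the membrane attack complex, fell from 192 ± 18.9 to 37.4 ± 9.2 CPM (log2 fold change -2.36). CFD, complement factor D, fell from 969 ± 127 to 242 ± 11 CPM (log2 fold change -2.00).

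Genes of matrix breakdown and cell shape were mostly higher, and those of integrins and the basement membrane went both ways. In the metalloproteinase and plasminogen list 18 of 21 rose and 1 fell. PLAU (ENSSSCG00025026918), the urokinase that activates plasminogen, was at 11.1, 10.4, 5.8 and 3.14 CPM in fresh cells and 141, 212, 209.6 and 173 CPM in spheroids (log2 fold change 4.57, SE 0.28, adjusted p = 5.38e-09). PLAT, tissue plasminogen activator, rose from 434 ± 34.8 to 2661 ± 96.5 CPM (log2 fold change 2.61). ANXA2, which docks plasminogen at the cell surface, rose from 1246 ± 60.9 to 2624 ± 183 CPM (log2 fold change 1.07). S100A10, its partner, rose from 364 ± 108 to 1177 ± 122 CPM (log2 fold change 1.69). MMP7, matrilysin, rose from 6.98 ± 1.3 to 1085 ± 481 CPM (log2 fold change 7.28). MMP2, a gelatinase made largely by stroma, fell from 23.6 ± 5.24 to 7.87 ± 2.37 CPM (log2 fold change -1.58). In the list of integrins, laminins and basement membrane 6 of 15 rose and 5 fell, shares near those of all genes. ITGB6, an integrin subunit of epithelia, rose from 1.09 ± 0.508 to 27 ± 3.72 CPM (log2 fold change 4.60). ITGB3, another integrin subunit, rose from 2.73 ± 1.37 to 36.1 ± 10.2 CPM (log2 fold change 3.71). The laminin chain LAMC1 rose from 31.1 ± 2.83 to 109 ± 8.79 CPM (log2 fold change 1.81). Another laminin chain, LAMA4, fell from 7.93 ± 1.21 to 3.34 ± 1.2 CPM (log2 fold change -1.25). COL4A5, a collagen of basement membranes, fell from 28.3 ± 3.67 to 13.8 ± 0.593 CPM (log2 fold change -1.04). THBS1, the adhesive glycoprotein thrombospondin, fell from 236 ± 99.3 to 125 ± 24.4 CPM (log2 fold change -0.91). Actin genes and targets of SRF and YAP rose in 20 and fell in 1 of 23, among them TMSB10, an actin-binding peptide, from 631 ± 20.5 to 4089 ± 326 CPM (log2 fold change 2.70). CNN2, calponin 2, rose from 19.8 ± 3.19 to 77.3 ± 7.47 CPM (log2 fold change 1.97). Protease inhibitors moved both ways. SERPINB8, an intracellular serpin, rose from 1.78 ± 0.532 to 45.8 ± 2.91 CPM (log2 fold change 4.67). SERPINB5, maspin, rose from 14.8 ± 3.47 to 89.2 ± 10.3 CPM (log2 fold change 2.59). SERPING1, a secreted serpin of the complement system, fell from 299 ± 73.1 to 46.7 ± 14.5 CPM (log2 fold change -2.68). CST3, the secreted cystatin C, fell from 1008 ± 229 to 206 ± 67.4 CPM (log2 fold change -2.29). CST6, another secreted cystatin, fell from 256 ± 30.6 to 35.5 ± 7.9 CPM (log2 fold change -2.85).

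Transport genes also split. Of 26 ion transport and fluid genes 8 rose and 12 fell (30.8% and 46.2%, against 35.8% of all genes in each direction). FXYD3 (ENSSSCG00025029896), a regulator of the sodium pump, was at 21.1, 38.7, 21.1 and 8.43 CPM in fresh cells and 329, 338, 301 and 300.1 CPM in spheroids (log2 fold change 3.82, SE 0.28, adjusted p = 2.59e-08). FXYD2, another regulator of the pump, went the other way, from 37.3 ± 16.8 to 5.09 ± 3.3 CPM (log2 fold change -2.87). The water channel AQP5 rose from 1.02 ± 0.588 to 4.7 ± 3.71 CPM (log2 fold change 2.19). AQP3, another water channel, fell from 9.08 ± 4.06 to 0.796 ± 0.306 CPM (log2 fold change -3.49). The pump subunit ATP1B1 fell from 563 ± 61.6 to 299.8 ± 37.8 CPM (log2 fold change -0.91). The sodium-glucose carrier SLC5A1 rose from 6.89 ± 1.37 to 39.6 ± 12.9 CPM (log2 fold change 2.52). The peptide carrier SLC15A2 fell from 190 ± 32.9 to 25.5 ± 8.8 CPM (log2 fold change -2.90). In the list of retinoid and steroid metabolism 9 rose and 7 fell of 18 (50% and 38.9%, against 35.8% of all genes in each direction). DHRS3, which reduces retinaldehyde, rose from 93.3 ± 8.41 to 605 ± 52.2 CPM (log2 fold change 2.70). ALDH1A1, which makes retinoic acid, rose from 509.5 ± 24.9 to 1907 ± 255 CPM (log2 fold change 1.90). RDH10, which makes retinaldehyde, fell from 24.7 ± 2.8 to 5.55 ± 1.14 CPM (log2 fold change -2.14).

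Markers of other cell types were detected in both groups, and most of those of stroma were lower in spheroids. Of 16 stromal fibroblast genes 11 fell and 4 rose, and all 4 that rose did so at least 2-fold. Fitted log2 fold changes of the list ran from -7.87 to 6.06, and 1 called member was at the floor in fresh cells. The summed level was 2118 to 2611 CPM in fresh libraries and 599 to 945 CPM in spheroids. COL1A1, a fibrillar collagen, fell from 31.1 ± 14.3 to 3.44 ± 2.76 CPM (log2 fold change -3.19), a log2 fold change that was -3.87 without spheroid replicate 4. COL3A1, another fibrillar collagen, fell from 24.1 ± 7.4 to 0.358 ± 0.21 CPM (log2 fold change -6.03), with spheroid counts near the floor. MGP, an inhibitor of calcification, held most of the list's level in fresh cells and fell from 1612 ± 293 to 6.84 ± 0.994 CPM (log2 fold change -7.87). The fall of the summed level was thus largely that of MGP, and the sum does not describe the other stromal genes. Smooth muscle and pericyte genes fell in 4 and rose in 2 of 9 (44.4% and 22.2%), at 374 to 482 and 313 to 624 CPM in sum. ACTA2, smooth muscle actin, was at 1.68 ± 0.94 and 1.63 ± 0.226 CPM and was not called (adjusted p = 0.945). Leukocyte genes fell in 7 and rose in 2 of 13, at 575 to 673 and 555 to 655 CPM in sum, with PTPRC, the common leukocyte antigen CD45, going from 7.01 ± 1.2 to 1.21 ± 0.767 CPM (log2 fold change -2.52). C1QB, a C1q chain made by macrophages, fell from 50.1 ± 8.76 to 8.16 ± 5.52 CPM (log2 fold change -2.62). Most of that sum came from CD79A, which rose from 457 ± 21.8 to 541 ± 42.7 CPM (log2 fold change 0.24) and was not called with upper quartile scaling (adjusted p = 0.108), so the sum does not follow the other leukocyte genes. Endothelial genes rose in 4 and fell in 2 of 7, at 46.6 to 63.1 and 99.3 to 164 CPM in sum. PECAM1, an endothelial adhesion protein, fell from 15.1 ± 0.866 to 8.05 ± 0.792 CPM (log2 fold change -0.91). KDR, a VEGF receptor, rose from 20.9 ± 6.83 to 60.6 ± 29.2 CPM (log2 fold change 1.53). CDH5, endothelial cadherin, rose from 11.4 ± 3.25 to 43 ± 9.03 CPM (log2 fold change 1.91). Most of the endothelial sum in spheroids came from KDR and CDH5, so the sum does not describe the other endothelial genes. Their fitted log2 fold changes reached -3.46. COL1A1, PTPRC and PECAM1 were above the floor in at least 1 library of each group. The part of these cells in the changes of matrix, cytokine and growth factor genes above was not tested.

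**Figure D3:**
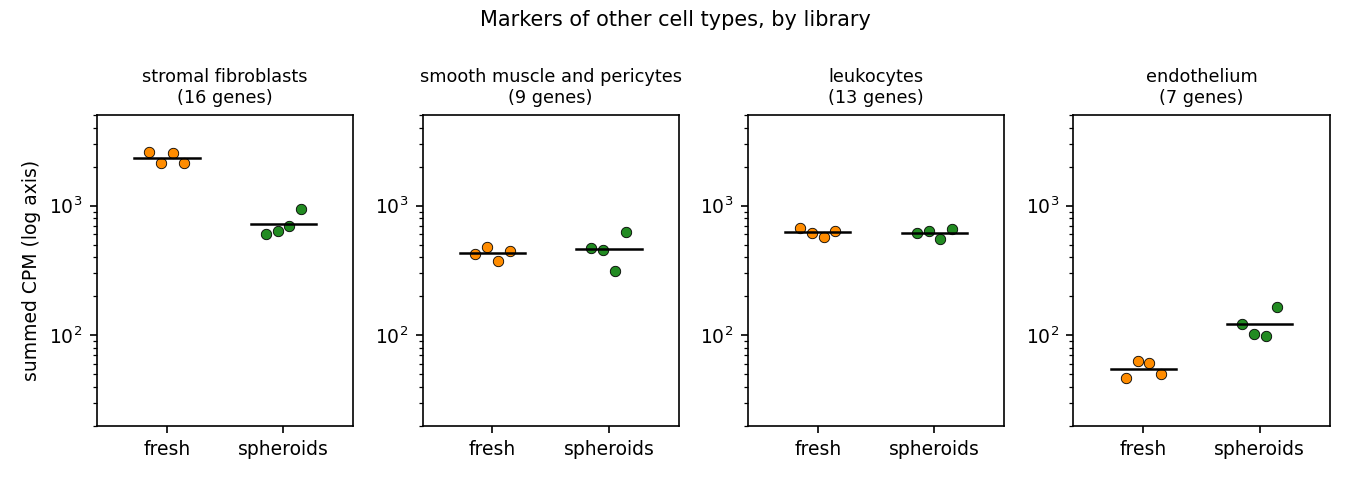
Summed CPM, on a log axis, of the tested members of 4 marker lists of other cell types in each library; points are libraries and bars are group means. Stromal markers sum to 599 to 945 CPM in spheroid libraries, below all fresh libraries at 2118 to 2611 CPM, and endothelial markers to 99.3 to 164 CPM, above the fresh libraries at 46.6 to 63.1 CPM. The lower stromal sum is largely due to the single gene MGP, and KDR and CDH5 hold most of the endothelial sum in spheroids.

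Long noncoding RNAs were mostly lower. Of 998 tested lncRNA rows 575 were called lower and 126 higher (median log2 fold change -0.92), against 4304 and 4881 of 12765 protein-coding rows (median 0.05). Among rows with a mean under 5 CPM, 56.6% of lncRNAs and 38.8% of protein-coding genes were lower, and at 5 CPM or more 59.3% and 32.7%. Pseudogene rows followed the lncRNAs, with 130 lower and 26 higher of 238. The lncRNA and pseudogene rows carry no symbol, and their part in neighbouring transcripts was not tested.

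The 4 spheroid libraries resembled each other about as closely as the 4 fresh ones. Over 2138 genes with at least 50 CPM in both groups the median SD of log2 CPM was 0.118 in spheroids and 0.124 in fresh cells. Where spheroids did differ, replicate 4 was most often the highest library (54 of the 100 most variable genes) and replicate 1 most often the lowest (45). SLC16A3 (ENSSSCG00025072776), the exporter of lactate, was at 10.1, 11.5, 12.2 and 13.3 CPM in fresh cells and 14.4, 56.7, 43.9 and 187 CPM in spheroids (log2 fold change 2.68, SE 0.58, adjusted p = 0.000864; 1.72 without spheroid replicate 4). BNIP3 (ENSSSCG00025058691), a mitophagy receptor induced in hypoxia, was at 39.3, 36.8, 36.1 and 46.3 CPM in fresh cells and 65.9, 119, 109 and 425 CPM in spheroids (log2 fold change 2.18, SE 0.45, adjusted p = 0.000554; 1.32 without replicate 4). ANGPTL4, a lipoprotein lipase inhibitor, was at 10.6, 7.89, 12.2 and 6.86 CPM in fresh cells and 34.6, 46.1, 37 and 146 CPM in spheroids, with a log2 fold change of 2.81 that was 2.08 without replicate 4. All 3 genes were highest in replicate 4, and the glycolysis list as a whole ran from 6681 to 15076 CPM in sum across the spheroid libraries, against 2325 to 2452 CPM in the fresh ones. PI3 (ENSSSCG00025058973), the elastase inhibitor elafin, had a different order, at 186, 20.6, 116 and 6.45 CPM in spheroids, and was at the floor in fresh cells, so that it was at least 149-fold higher in spheroids (adjusted p = 0.00103); without replicate 1 its spheroid mean was 47.6 CPM.

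**Figure D4:**
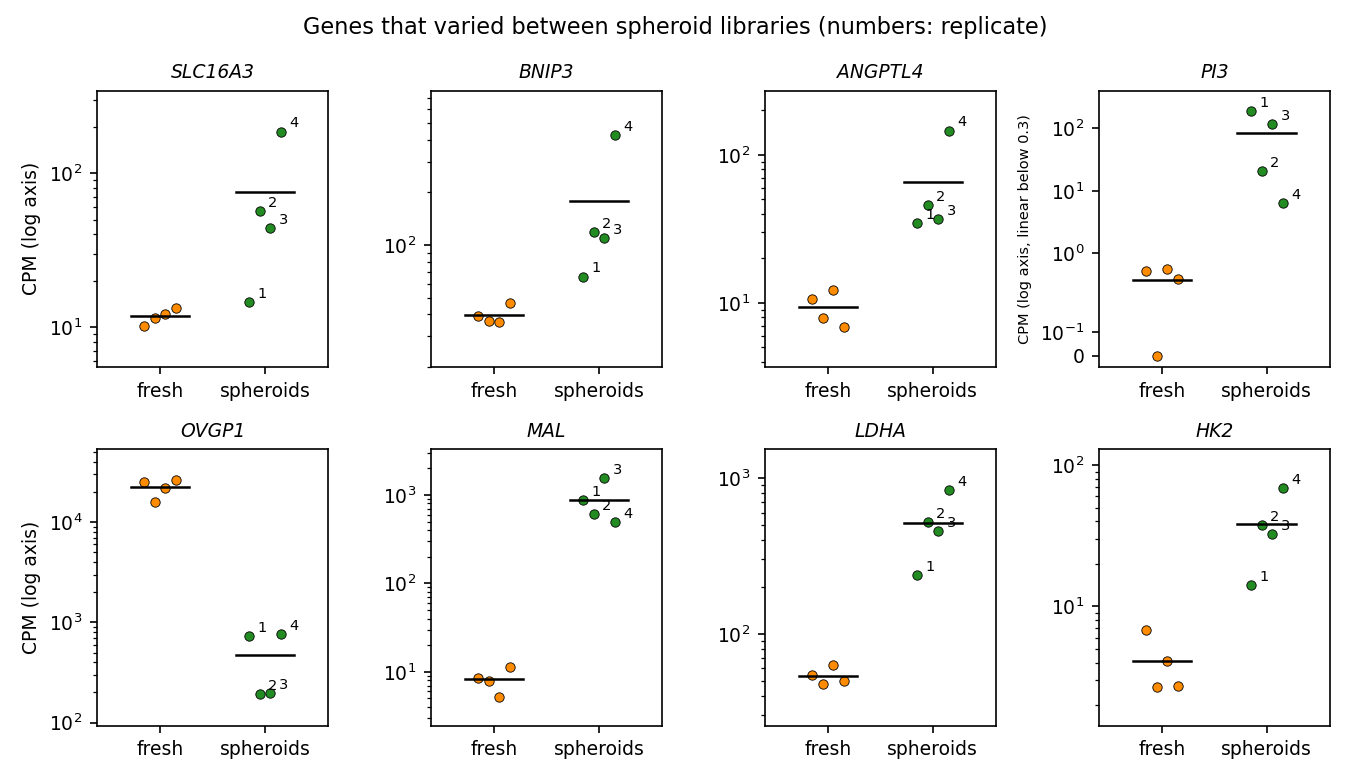
CPM on a log axis of 8 genes that varied between spheroid libraries in the 4 libraries of fresh cells and of incubation medium spheroids, with the replicate number beside each spheroid point. Replicate 4 is the highest spheroid library for SLC16A3, BNIP3 and ANGPTL4, and PI3 is highest in replicate 1.

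The incubation medium spheroids were also compared directly with the DMEM/F12 spheroids. To this test the fresh libraries contribute only through the shared filter, scaling and estimate of the spread. The titles of the DMEM/F12 libraries carry FBS, a common short form for fetal bovine serum, while their treatment label names only DMEM/F12. Any part of serum in the differences was not tested. Against DMEM/F12 spheroids 1791 genes were higher (12.7%) and 1731 lower (12.3%), a split that became 1239 and 2471 with library totals in place of TMM. All 60 ribosomal protein genes were higher in incubation medium (median log2 difference 0.48), and all 60 were with library totals as well. Ribosome biogenesis was higher in 18 of 22 and tRNA synthetases in 10 of 13, and with library totals in 14 and 10. Actin genes and SRF and YAP targets were lower in 14 of 23, TGF-beta and BMP genes in 15 of 31, and tight junction genes in 9 of 16, where 2 were higher. SPP1 was at 7499 ± 1852 CPM in DMEM/F12 spheroids, a log2 difference of 1.59 between the media (adjusted p = 2.28e-05), and GABRP at 861 ± 150 CPM (0.97, adjusted p = 0.000527). CXCL8 was at 169 ± 41.6 CPM (2.07, adjusted p = 0.00172) and MMP7, lower in incubation medium, at 3835 ± 1116 CPM (-1.82, adjusted p = 0.000188). Of the 25 radial spoke and axoneme genes 0 were higher and 0 lower between the media, with a median difference of -0.02 (edgeR quasi-likelihood test), and 2 had an unadjusted p under 0.05. With DESeq2 0 were called, and 2 had an unadjusted p under 0.05. The single differences lay between -0.38 and 0.74 on the log2 scale.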

How the data were processed

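The series measured polyadenylated RNA by bulk 3′ sequencing in 12 libraries, 4 in each of 3 groups, and 8 of them enter the main comparison. Per the file headers, the deposited table holds for each library a count and a CPM value per gene row; between 19.1 and 19.9% of the nonzero deposited counts were not whole numbers, so these deposited values are estimated counts, as the authors made them, and they were rounded here, although the test had been planned for whole counts. The authors' CPM equals the deposited count divided by the column total and was not tested. The submitters' processing notes name fastp 0.24.0, STAR 2.7.11, SAMtools 1.22.1 and featureCounts of Subread 2.1.1, without their order; the genome build, the strand setting and any use of molecular identifiers are not given in the sources used here. The table's gene IDs were used as given, with no coordinates, and no sequence is printed.

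Rows of the biotype transgene were dropped, genes were filtered with filterByExpr by group, and the 12 libraries were scaled by TMM and fitted together with edgeR 4.0.16 (R 4.3.3, limma 3.58.1) by its quasi-likelihood test, with Benjamini-Hochberg adjustment over all 14070 tested genes. The standard error is the log2 fold change divided by the square root of F. The fit was tested on simulated data with known fold changes in a small share of the genes and with independent libraries. That test does not cover data in which most genes are called or same-numbered libraries deviate together. CPM values printed here use TMM-scaled library sizes, and SDs of log2 CPM use a prior count of 2. A gene was at the floor of a group where every library held 3 counts or fewer; floors cover counting error only. With genes at the floor set to their bounds, the median of 1 of the 58 gene lists, that of stratified epithelia, moved by over 0.02 on the log2 scale. Replicates of a group differed by more than sampling noise, with a chi-square per degree of freedom of 5.44 or more for every pair. Samples sharing a replicate number in the labels deviated together: the correlation of deviations from group means was 0.196 to 0.293 for the 4 same-numbered pairs of fresh and incubation medium libraries and -0.198 to 0.0233 for other pairs, so a fit with the replicate number as a block was run as well; the labels do not say what the number stands for. The other alternatives were library totals, upper quartile scaling, DESeq2 1.42.0, 2 other filters, only the 2 groups compared, only genes with whole counts and leaving out each library.

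The gene lists and members were chosen with earlier results of these data known, so a list's direction is not independent evidence, and lists were described by counts and medians without a test. Named genes were, per direction, the 20 with the largest change among called genes with a symbol on 1 row, a mean of at least 20 CPM and no overlap; within each list the 3 largest called changes per direction and the 3 highest means; the 10 with the most counts per group; the 10 most variable spheroid genes with at least 50 CPM; and a few cell type markers. Not every such gene is described. Counts of 45 of the 252 named genes were not whole in at least 4 of the 8 libraries, so reads may be split with similar or overlapping genes and their levels are uncertain: ACTA2, ACTG1, ANXA2, ATF3, ATP1B1, CAPS, CD79A, CLDN4, CNN2, ENO2, EPCAM, ESR1, FABP3, FTH1, FTL, GINS1, HSPA8, ID4, IGSF23, ITGB3, KLF5, KRT15, MAL, MDK, MT2A, MUC1, MUC20, OVGP1, P4HA1, PECAM1, PI3, RPL34, RPL8, RPSA, S100A10, S100A6, SAA3, SLC15A2, SLPI, SPINT2, THBS1, TPPP3, TPT1, TSC22D3 and UBB.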

Additional observations from a re-analysis of the deposited data

Results flagged for a closer look

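In 28 of the 504 groups of 4 libraries examined for the named genes, 1 library stood apart from the other 3 by Dixon's criterion, a share near the 1 in 20 that chance gives. Among spheroid libraries the one apart was replicate 1 for 6 genes, replicate 3 for 1 gene and replicate 4 for 7 genes. Spheroid replicate 1 was high for EHF at 139 CPM (others 106 to 109.8), ESR1 at 326 CPM (others 253 to 256), GARS1 at 375 CPM (others 309 to 317), JAG1 at 52 CPM (others 40.4 to 42.3) and TKT at 737 CPM (others 585 to 604). Spheroid replicate 1 was low for CENPF at 56.5 CPM (others 65 to 66.6). Spheroid replicate 3 was high for IL18 at 71.9 CPM (others 45.3 to 46.9). Spheroid replicate 4 was high for ANGPTL4 at 146 CPM (others 34.6 to 46.1), BNIP3 at 425 CPM (others 65.9 to 119), DGAT1 at 21.2 CPM (others 14.3 to 14.8), ELF3 at 799 CPM (others 511 to 535), ENO2 at 29.6 CPM (others 9.07 to 10.8), FTH1 at 4738 CPM (others 3899 to 3938) and TCF7 at 52.4 CPM (others 32.8 to 35.9). Among fresh cell libraries the one apart was replicate 1 for 5 genes, replicate 2 for 7 genes, replicate 3 for 1 gene and replicate 4 for 1 gene. Fresh cell replicate 1 was high for CA12 at 19.5 CPM (others 9.8 to 10.5), SPINT2 at 2119 CPM (others 1920.2 to 1941) and THBS1 at 384 CPM (others 168 to 202). Fresh cell replicate 1 was low for CST6 at 211 CPM (others 267 to 277) and PTX3 at 46.6 CPM (others 55.9 to 57.4). Fresh cell replicate 2 was high for ATF3 at 4393 CPM (others 2782 to 3001), ELF3 at 112 CPM (others 95.8 to 98.5), FOS at 15556 CPM (others 10799.9 to 11129), KLF4 at 1872 CPM (others 938 to 1042) and TSC22D3 at 245 CPM (others 158 to 166). Fresh cell replicate 2 was low for LGR5 at 44.3 CPM (others 48.6 to 49.4) and SREBF2 at 63.7 CPM (others 86 to 90.2). Fresh cell replicate 3 was high for TMEM213 at 99.1 CPM (others 42.6 to 49.8). Fresh cell replicate 4 was high for CENPA at 1.57 CPM (others 0.538 to 0.696).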

How the results depend on the processing

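The counts of called genes moved by over 1.5 times under 1 alternative, that restricted to genes with whole counts in every library, which tested 5923 genes: 2117 were higher and 2125 lower in spheroids than in fresh cells, 1030 and 1427 by at least 2-fold, and 664 were higher and 680 lower between the media. Leaving out each library in turn gave 4901 to 5043 higher and 4904 to 5172 lower genes, 2173 to 2294 and 3040 to 3303 by at least 2-fold, and 1447 to 1698 higher and 1348 to 1652 lower between the media. DESeq2, run on the 23767 genes with any count, called 5177 genes higher and 5664 lower than in fresh cells, and upper quartile scaling of the filtered genes 4497 and 5593. Fitted without the DMEM/F12 libraries, 13497 genes were tested, and 4778 were higher and 4879 lower than in fresh cells. With the replicate block, in which same-numbered libraries were paired, 5275 genes were higher and 5315 lower, and 2329 and 2284 between the media; EPCAM was called lower, the epithelial adhesion list gained lower calls, and no other named gene changed its call. Of the 250 named genes called, all kept their direction under every alternative that tested them, and all kept their call except CD79A with upper quartile scaling. EPCAM, not called in the main analysis, was called lower under 7 of 15 alternatives. The uncalled log2 fold change of ACTA2 ranged from -0.375 to 0.182 with a library left out; its main value, -0.0325, was 0.0295 with no filter, 0.182 and 0.169 without fresh replicates 2 and 4, and 0.00621 and 0.0641 without spheroid replicates 1 and 3. The medians of 5 of the 58 lists changed sign under some alternative, those of mucins, of cytokines and NF-kB targets, of metal ion genes, of sugar and lipid carriers and of erythroid, nerve and mesothelial markers. For genes at a few CPM the depth limits what can be told: at the floor a fresh library cannot separate 0 from 0.552 CPM and a spheroid library from 0.383 CPM.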
